A study of Mus musculus with 22 samples.

Results

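The genes described here are the NF-kappaB subunits and a set of their inhibitors, feedback regulators and targets in mouse myeloid cells and tumors. They are 10 genes taken by symbol: the subunits Nfkb1, Nfkb2, Rel, Rela and Relb, the inhibitors Nfkbia, Nfkbie and Nfkbiz, the ubiquitin-editing enzyme Tnfaip3 and the cytokine Tnf. All 10 were listed in each of the 3 count tables, among 23912 genes for normoxia cultures, 33265 genes for hypoxia cultures and 24251 genes for tumors. All 10 passed the filter on low counts in every comparison. RNA was sequenced from 22 samples, all on a C57BL/6N background, to compare wild type (WT) with knockout (KO) of VISTA, an immune checkpoint molecule whose gene is Vsir. Bone marrow myeloid cells were cultured in normoxia and taken at day 4, with 4 VISTA KO and 4 WT samples, or taken from hypoxia at 24 hours, again with 4 VISTA KO and 4 WT samples. The normoxia cultures received GM-CSF and IL-6, and their replicates are stated to be independent. Tumor tissue of MC38, a mouse colon carcinoma line, was taken at day 7 from 3 VISTA KO and 3 WT samples. The labels give neither the allele nor the cells that lack VISTA, and the cytokines of the hypoxia cultures are not given in the sources used here. The tumor samples are labelled as tissue while the name of their table speaks of myeloid-derived suppressor cells, and whether cells were purified is not given in the sources used here.

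NF-kappaB transcription factors are dimers of 5 related subunits that inhibitor proteins hold in the cytoplasm of a resting cell. In the canonical branch, inflammatory receptors activate the IKK kinase complex, the inhibitors are degraded, and dimers of RelA or c-Rel with the processed Nfkb1 product enter the nucleus; in the noncanonical branch, a few TNF family receptors trigger processing of the Nfkb2 precursor, which pairs with RelB. Several target genes shut the signal off again: Nfkbia and Nfkbie encode inhibitors that recapture the dimers, and Tnfaip3 encodes A20, which acts on ubiquitin chains upstream of IKK. Nfkbiz encodes a nuclear inhibitor family member that co-activates a subset of targets, and Tnf encodes the cytokine that is both a target and an activator of the pathway. In myeloid cells this circuit is known for controlling inflammatory cytokines and survival.

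Because the members include textbook targets of their own pathway, their promoters were read for the binding motif of the factors themselves. RefSeq windows from 250 bases before to 50 bases after an annotated start (build GRCm38.p6) were at hand for 7 of the 10 genes, and not for Nfkb1, Relb and Nfkbiz. A match to the NF-kappaB (kappaB) consensus of 10 bases, on either strand, was present in 7 of the 10 windows of these genes, while 4.51% of all 32851 windows held one. The 7 windows belong to 5 genes, and those of both further annotated starts of Nfkb2 overlap and share a match, so they are not separate. The 150 bases before the start are shown for these 5 genes, each read along its own strand, with the matched bases in capitals (overlapping matches run together in Nfkb2 and Rel).
Nfkb2: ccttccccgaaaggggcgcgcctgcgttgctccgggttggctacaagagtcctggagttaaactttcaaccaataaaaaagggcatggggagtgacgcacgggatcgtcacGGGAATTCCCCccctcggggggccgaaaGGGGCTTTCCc
Rel: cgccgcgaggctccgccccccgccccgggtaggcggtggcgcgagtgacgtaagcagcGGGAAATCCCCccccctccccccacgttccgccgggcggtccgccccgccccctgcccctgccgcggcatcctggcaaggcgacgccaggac
Nfkbia: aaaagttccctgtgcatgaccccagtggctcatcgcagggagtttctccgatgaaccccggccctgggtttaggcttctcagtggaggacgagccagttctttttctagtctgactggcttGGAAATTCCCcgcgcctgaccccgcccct
Nfkbie: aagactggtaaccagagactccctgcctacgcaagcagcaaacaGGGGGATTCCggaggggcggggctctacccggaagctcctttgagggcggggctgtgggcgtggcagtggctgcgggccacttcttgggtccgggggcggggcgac
Tnfaip3: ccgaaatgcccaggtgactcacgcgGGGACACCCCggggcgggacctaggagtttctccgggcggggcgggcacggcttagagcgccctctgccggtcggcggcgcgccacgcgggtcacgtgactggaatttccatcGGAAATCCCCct
The pieces lie at chr19:46304587-46304736 (plus strand) for Nfkb2, chr11:23770970-23771119 (minus strand) for Rel, chr12:55492648-55492797 (minus strand) for Nfkbia, chr17:45555550-45555699 (plus strand) for Nfkbie and chr10:19015411-19015560 (minus strand) for Tnfaip3. Counted from the start, the matches begin at positions -39, -38 and -11 in Nfkb2, -92 and -91 in Rel, -29 in Nfkbia, -106 in Nfkbie, and -125 and -12 in Tnfaip3. Both further annotated starts of Nfkb2 also had matches in their windows, and for the last of these starts the shared match is the only one. A further start of Tnfaip3 had none. The windows of Rela and Tnf held no match to these letters. A match is a description of the sequence, and no binding was measured.

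Each culture library held 23409142 to 31385825 counts. Tumor libraries held 19119985 to 23089943 counts in VISTA KO and 27452024 to 31716200 counts in WT. Vsir averaged 177 ± 47.6 CPM (counts scaled to the library total, adjusted by TMM for differences in composition) in KO and 713 ± 97.5 CPM in WT normoxia cultures (SD, n = 4 each), 147 ± 23.2 CPM in KO and 546 ± 44.3 CPM in WT hypoxia cultures (SD, n = 4 each), and 118 ± 8.36 CPM in KO and 459 ± 28.3 CPM in WT tumors (SD, n = 3 each). KO samples thus held 24.8% to 26.9% of the WT level with no overlap of ranges, and which part of the gene is deleted is not given in the sources used here. Neutrophil genes were abundant in all cultures: the summed level of 8 markers was at least 21711 CPM in each hypoxia library and 28079 CPM in each normoxia library. In tumors the same list summed to at most 349.9 CPM, of which nearly all was Csf3r, and Ly6g was at 0 in 2 of 3 libraries of each genotype. A list of 8 monocyte and macrophage genes summed to 9914 to 10835 CPM in KO and 10316 to 11162 CPM in WT tumors. Of 5 epithelial and carcinoma markers, Cdh1 held 24.7 to 46.9 CPM in KO and 15.97 to 33.4 CPM in WT tumors. The other 4, Epcam, Krt8, Krt18 and Krt19, were each under 1 CPM in every tumor library but KO replicate 2, where Krt8, Krt18 and Krt19 reached 5.47, 2.12 and 2.69 CPM. In such bulk samples, fewer cells of a type and less RNA per cell cannot be told apart.

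The members were arranged differently over the 6 groups, and Nfkbie, Relb and Nfkb2 were far higher in tumors than in any culture group. To set all groups on a shared scale, the 22 libraries were normalised together; since each experiment is a table of its own, differences between experiments cannot be told apart from differences in preparation. Relb, the noncanonical subunit, averaged 111 ± 4.10 CPM in KO and 92.8 ± 7.16 CPM in WT tumors (SD, n = 3 each). In culture it stood at 23.0 ± 3.79 CPM in KO and 29.3 ± 2.95 CPM in WT normoxia samples, and at 10.98 ± 1.60 CPM in KO and 15.6 ± 3.46 CPM in WT hypoxia samples (SD, n = 4 each). Its partner Nfkb2 had the same order of groups, with 189 ± 4.83 CPM in KO and 157 ± 9.23 CPM in WT tumors, and its lowest level, 33.3 ± 3.26 CPM, in KO hypoxia cultures. Nfkbie, the inhibitor encoding IkappaB-epsilon, followed that order too, with 188 ± 4.10 CPM in KO and 164 ± 6.38 CPM in WT tumors against 18.4 to 29.1 CPM as group means in culture. The highest group mean was 10.1 times the lowest for Relb, 10.2 times for Nfkbie and 5.68 times for Nfkb2. From WT tumors to the highest culture group, the log2 difference was 2.49 for Nfkbie, 1.66 for Relb and 1.24 for Nfkb2. Rela and Nfkbia were also highest in tumors, by smaller steps of 0.40 and 0.36. Exons of Nfkb2 overlap those of Psd and of a long noncoding RNA on the opposite strand, by 299 and 531 bases, and whether counting used strand is not given in the sources used here.

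The canonical subunits moved less between groups than Relb and Nfkb2, and the widest span among them was 2.75-fold, for Nfkb1. Rela spanned a 1.76-fold range of group means, with 190.5 ± 5.99 CPM in KO tumors as the highest (SD, n = 3) and 108 ± 10.3 CPM in WT normoxia cultures as the lowest (SD, n = 4). Rel, encoding c-Rel, spanned 1.99-fold and was lowest in normoxia, at 43.0 ± 6.34 CPM in KO and 38.4 ± 2.62 CPM in WT cultures (SD, n = 4 each). Nfkb1 was the only subunit that was highest in normoxia, at 192 ± 3.76 CPM in KO and 186 ± 4.63 CPM in WT cultures, and lowest in tumors, at 85.6 ± 5.25 CPM in KO and 69.7 ± 2.34 CPM in WT. Per kilobase of merged exon, Nfkbia, encoding IkappaB-alpha, had the highest level of the 10 in all 6 groups, with group means between 111 CPM per kilobase in KO normoxia cultures and 399.99 CPM per kilobase in KO tumors. Rela was at 35.2 to 62.0 CPM per kilobase and Nfkb1 at 5.78 to 15.9 CPM per kilobase as group means. Exons merged over all isoforms came to 3072 bases for Rela and 12061 bases for Nfkb1, and the values depend on these lengths. By CPM, Nfkb1 was above Rela in normoxia, at 192 CPM against 114 CPM in KO and 186 CPM against 108 CPM in WT cultures.

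The feedback genes Nfkbiz and Tnfaip3 were low in normoxia and high in both other settings. Nfkbiz averaged 19.0 ± 2.14 CPM in KO and 14.5 ± 1.11 CPM in WT normoxia cultures, but 151 ± 18.0 CPM in KO and 136 ± 25.3 CPM in WT hypoxia cultures (SD, n = 4 each) and 123 ± 6.26 CPM in KO and 115 ± 8.45 CPM in WT tumors (SD, n = 3 each). Tnfaip3 was highest in KO tumors, at 289.8 ± 3.85 CPM, and lowest in KO normoxia cultures, at 37.4 ± 4.73 CPM, a 7.76-fold span. Tnf had the reverse arrangement: it was highest in normoxia, at 46.1 ± 11.7 CPM in KO and 63.1 ± 17.4 CPM in WT cultures, and no neighbouring groups in its order passed the test. Over all 10 genes, 21 of the 50 pairs of neighbouring groups differed (edgeR over 16048 genes, adjusted p under 0.05). The widest steps lay between tumors and cultures for Nfkbie (log2 difference 2.49, WT tumor over WT normoxia) and for Nfkbiz (2.60, WT tumor over KO normoxia). As a description over the 6 group means, centred per gene, the closest pairs were Nfkb2 with Relb (root mean square difference 0.31 on the log2 scale), Rel with Rela (0.32) and Relb with Nfkbie (0.32).

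**Figure D1:**
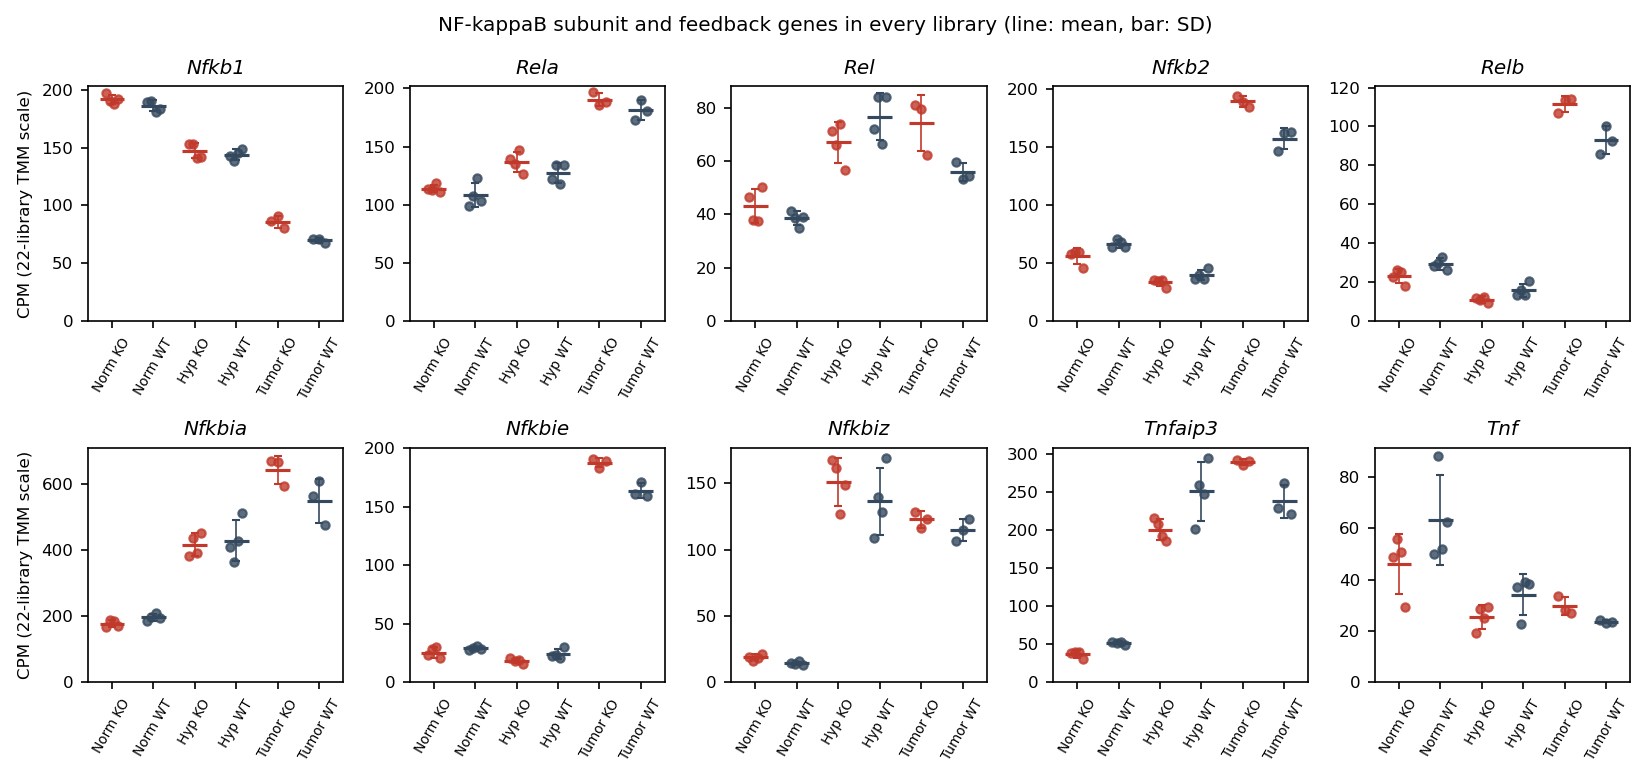
Level of each of the 10 genes in every library (points) with the group mean and SD, in CPM on the scale shared by all 22 libraries, for VISTA KO and WT samples of each experiment. Nfkb2, Relb and Nfkbie stand highest in tumors, Nfkbiz and Tnfaip3 stand low in normoxia alone, and Nfkb1 and Tnf are highest in normoxia.

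Hypoxia cultures differed from normoxia cultures in 10 of 10 members in KO and in 9 of 10 in WT, at a background of 51.7% of all 15293 genes called in KO (26.1% higher and 25.6% lower) and 51.7% in WT (26.6% higher and 25% lower). Ranges of hypoxia and normoxia samples did not overlap for 9 members in KO, beside 43.3% of all genes, and for 8 in WT, beside 46.9%. Nfkbiz, Tnfaip3, Nfkbia, Rel and Rela were higher, and Nfkb1, Nfkb2, Relb and Tnf were lower, in both genotypes. On the scale shared by all libraries, Nfkbiz had 168, 162, 127 and 149 CPM in the KO hypoxia samples, against 19.3, 16.4, 18.5 and 21.6 CPM in the KO normoxia samples. In WT it had 109, 139.8, 128 and 169 CPM in hypoxia, against 14.5, 14.0, 16.1 and 13.5 CPM in normoxia. Every hypoxia sample was thus far above every normoxia sample, and the log2 fold change was 3.01 ± 0.13 in KO (SE, edgeR adjusted p = 3.1e-12) and 3.24 ± 0.13 in WT (adjusted p = 1.55e-12).

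Tnfaip3 behaved likewise, with 216, 208, 193 and 186 CPM in KO hypoxia samples, against 38.3, 40.6, 40.1 and 30.4 CPM in KO normoxia samples. In WT it had 202, 259.9, 248 and 296 CPM in hypoxia, against 53.1, 52.4, 53.7 and 49.6 CPM in normoxia. The ranges were well apart, and the log2 fold change was 2.44 ± 0.11 in KO (edgeR adjusted p = 5.33e-12) and 2.27 ± 0.11 in WT (adjusted p = 1.76e-11). Nfkbia rose by a log2 fold change of 1.24 ± 0.09 in KO and 1.13 ± 0.09 in WT (edgeR adjusted p = 3.06e-09 and 1.2e-08). Rel rose by 0.65 ± 0.11 in KO and 0.999 ± 0.11 in WT on the log2 scale (edgeR adjusted p = 9.08e-05 and 8.53e-07), and Rela by 0.28 ± 0.08 in KO and 0.24 ± 0.08 in WT (adjusted p = 0.00463 and 0.0145). The WT call of Rela, whose ranges overlapped, was lost without normoxia WT replicate 1 (edgeR adjusted p = 0.0596) and with scaling by library size alone (0.257), a scaling under which the median of all genes shifted to -0.11 in KO and -0.15 in WT.

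The genes that fell in hypoxia were led by Relb, which had 12.0, 10.5, 12.5 and 8.94 CPM in KO hypoxia samples, against 22.6, 26.3, 25.3 and 17.9 CPM in KO normoxia samples. In WT it had 13.2, 15.8, 13.1 and 20.5 CPM in hypoxia, against 28.2, 29.9, 33.0 and 26.0 CPM in normoxia. No ranges overlapped, and the log2 fold change was -1.05 ± 0.15 in KO and -0.90 ± 0.15 in WT (edgeR adjusted p = 1.39e-05 and 5.91e-05). Nfkb2 fell by 0.73 ± 0.10 in KO and by 0.75 ± 0.10 in WT on the log2 scale (edgeR adjusted p = 7.74e-06 and 5.58e-06). Nfkb1 fell by 0.36 ± 0.06 in KO and by 0.37 ± 0.06 in WT (edgeR adjusted p = 4.44e-05 and 4.19e-05), and Tnf by 0.84 ± 0.23 in KO and by 0.88 ± 0.22 in WT (adjusted p = 0.00542 and 0.00365). Nfkbie was lower in KO (-0.45 ± 0.12, edgeR adjusted p = 0.00519), although its ranges overlapped, and had -0.27 ± 0.12 in WT without passing the test (adjusted p = 0.0771). Its WT value did pass without normoxia KO replicate 4 or without hypoxia WT replicate 4, with an adjusted p as low as 0.0143.

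Oxygen, culture time and count table change together in these samples and cannot be told apart. Immediate early genes, which respond to handling as well as to stimulation, moved the same way as the feedback genes: 9 of 9 were higher in hypoxia in each genotype, with a summed level of 2263 to 2868 CPM in KO hypoxia and 648 to 735 CPM in KO normoxia samples, and of 2060 to 2729 CPM in WT hypoxia and 586 to 733 CPM in WT normoxia samples. Eosinophil markers were called higher for 5 of 5 in KO and 4 of 5 in WT, and summed to 1892 to 3395 CPM in KO hypoxia and 47.4 to 84.9 CPM in KO normoxia samples, and to 979 to 1589.7 CPM in WT hypoxia and 22.3 to 40.9 CPM in WT normoxia samples. Mast cell and basophil markers were higher for 5 of 5 in each genotype, and erythroid markers for 2 of 2 tested. Monocyte and macrophage markers were higher for 4 of 8 and lower for 2 of 8 in KO, and higher for 5 of 8 and lower for 1 of 8 in WT. Neutrophil markers were higher for 1 of 8 and lower for 3 of 8 in KO, and lower for 5 of 8 in WT. Genes of the mitochondrial genome were higher for 3 of 13 and lower for 5 of 13 in KO, and higher for 7 and lower for 4 in WT. The part of any of these lists in the members' changes was not tested.

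**Figure D2:**
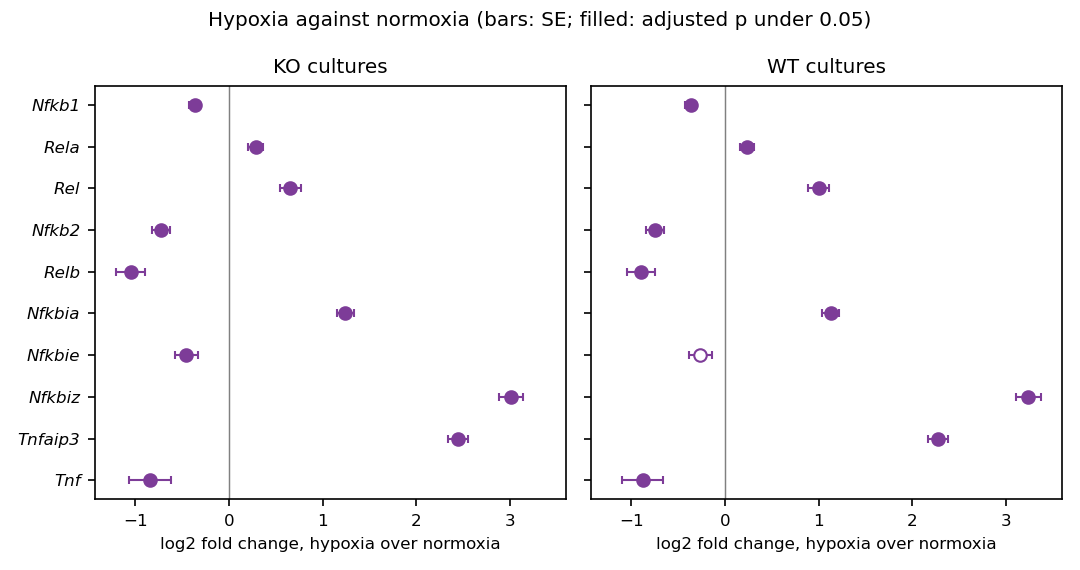
Log2 fold change of each gene in hypoxia over normoxia cultures (x axis), in VISTA KO and in WT samples, with bars of 1 SE from the edgeR fit and filled points where the adjusted p was under 0.05. Nfkbiz, Tnfaip3, Nfkbia, Rel and Rela lie to the right of 0 and the other 5 genes to the left in both genotypes.

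In normoxia, VISTA KO cultures had less Tnfaip3 and more Nfkbiz than WT cultures, and no other member passed the test. The 2 called genes of 10 stand against 11.3% of all 13950 tested genes called in that comparison, 7.13% higher and 4.17% lower, and the members' median log2 fold change was -0.18 beside -0.02 over all genes. Tnfaip3 had 40.6, 43.0, 42.2 and 31.7 CPM in KO samples, against 56.0, 55.9, 57.2 and 52.9 CPM in WT samples. All KO samples were below all WT samples, at a log2 fold change of -0.50 ± 0.10 (SE, edgeR adjusted p = 0.0123), and this call was kept with each of the 8 libraries left out. Nfkbiz had 20.5, 17.4, 19.4 and 22.5 CPM in KO samples, against 15.3, 14.97, 17.1 and 14.4 CPM in WT samples. The groups did not overlap here either, at 0.37 ± 0.10 (edgeR adjusted p = 0.0444). Its call was lost without KO replicate 1, 3 or 4 (edgeR adjusted p = 0.0872, 0.091 and 0.0748) and without WT replicate 1, 2 or 4 (0.115, 0.115 and 0.131).

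Among the other members in normoxia, Nfkb2 had 61.6, 63.4, 62.5 and 47.9 CPM in KO samples, against 66.8, 75.6, 72.6 and 68.3 CPM in WT samples. Its ranges were apart, and it missed the threshold (-0.27 ± 0.10, edgeR adjusted p = 0.0956). A total of 3 members had ranges that did not overlap, beside 20% of all tested genes: 2 were lower in KO, beside 9.33%, and 1 was higher, beside 10.7%. Relb (-0.36 ± 0.13, edgeR adjusted p = 0.0853) passed without KO replicate 2 (0.0432). Tnf had -0.47 ± 0.21 with a wide WT range of 52.6 to 93.7 CPM, and the 5 remaining members lay between -0.20 and 0.15 on the log2 scale. KO replicate 4 was the lowest KO library for 6 members, Tnfaip3 and Nfkb2 among them. Scaling by library size alone shifted the median of all genes to -0.11, and under it 726 genes were called higher and 951 lower, in place of 995 higher and 582 lower.

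Under hypoxia, KO cultures had less Relb, Nfkbie and Tnfaip3 than WT cultures, and no member was called higher. Those 3 of 10 compare with 34.9% of all 15018 tested genes called, and 17.6% called lower, so the share of members called is near the background. Relb had 11.9, 10.2, 12.4 and 8.75 CPM in KO samples, against 12.9, 15.8, 12.8 and 20.2 CPM in WT samples. Nfkbie had 20.4, 17.9, 18.6 and 15.4 CPM in KO samples, against 21.7, 23.1, 20.7 and 29.7 CPM in WT samples. In both genes the highest KO sample stood just under the lowest WT sample, and the log2 fold changes were -0.51 ± 0.16 for Relb and -0.40 ± 0.12 for Nfkbie (SE, edgeR adjusted p = 0.0237 and 0.0252). Tnfaip3 had 214, 203, 191 and 182 CPM in KO samples, against 197, 259, 244 and 292 CPM in WT samples. WT replicate 1 lay among the KO samples, and the log2 fold change was -0.33 ± 0.10 (edgeR adjusted p = 0.0288).

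Nfkb2 had ranges apart in hypoxia as well, with 34.9, 33.5, 34.8 and 27.9 CPM in KO samples against 35.6, 39.9, 35.7 and 45.0 CPM in WT samples, and missed the threshold (-0.25 ± 0.10, edgeR adjusted p = 0.06). Ranges did not overlap in 3 members, all lower in KO, beside 32.6% of all tested genes, 15.7% lower and 16.9% higher. Tnf had 19.1, 27.8, 24.6 and 28.6 CPM in KO samples, against 36.3, 22.5, 38.2 and 37.6 CPM in WT samples (-0.43 ± 0.17, edgeR adjusted p = 0.0742). WT replicate 2 alone fell among the KO samples, and without it Tnf passed (-0.58, adjusted p = 0.00285). The other 5 members lay between -0.20 and 0.14 on the log2 scale. The members' median was -0.23, beside -0.01 over all genes. None of the 3 calls was kept without KO replicate 2 (edgeR adjusted p = 0.0635 for Relb, 0.0605 for Nfkbie and 0.0565 for Tnfaip3) or without WT replicate 4 (0.066, 0.0652 and 0.0812), the highest WT library for 7 members. Without KO replicate 4, the lowest KO library for 7 members, Relb alone was called (0.0548 for Nfkbie and 0.0587 for Tnfaip3), and Tnfaip3 also missed without KO replicate 3 (0.0677) or WT replicate 3 (0.0521).

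Other markers moved with genotype in the cultures. Neutrophil markers were called higher in KO for 5 of 8 genes in normoxia, with sums of 39458 to 57785 CPM in KO and 28079 to 38153 CPM in WT, and for 8 of 8 in hypoxia, with sums of 45892 to 56547 CPM in KO and 21711 to 29841 CPM in WT. Eosinophil markers were called higher for 2 of 3 tested genes in normoxia and for 5 of 5 in hypoxia, with the sums given above. Mast cell and basophil markers were called higher for 4 of 4 tested genes in normoxia (sums of 16.1 to 21.1 CPM in KO and 8.30 to 10.6 CPM in WT) and for 5 of 5 in hypoxia (470.1 to 694 CPM in KO and 311 to 473 CPM in WT). Monocyte and macrophage markers were called higher for 3 of 8 in normoxia (3236 to 3473 CPM in KO and 2625 to 3237 CPM in WT) and for 1 of 8 in hypoxia (2607 to 2984 CPM in KO and 2432 to 2788 CPM in WT). Erythroid markers were called lower for 2 of 2 tested in hypoxia (4.94 to 9.68 CPM in KO and 21.2 to 72.7 CPM in WT), and genes of the mitochondrial genome higher for 3 of 13 in normoxia (43479.9 to 59558 CPM in KO and 36101 to 46432 CPM in WT). Of 9 immediate early genes, Atf3 was lower in normoxia, and in hypoxia Jun, Egr1 and Ier2 were higher and Atf3 and Nr4a1 lower, with the sums given above. Of 6 general myeloid genes, 2 were higher and 2 lower in hypoxia (8007 to 10577 CPM in KO and 7184 to 9123 CPM in WT). Epithelial genes summed to 108 to 169 CPM in KO and 247 to 288 CPM in WT hypoxia cultures, where Cdh1 was lower and Krt18 higher of 3 tested. Also in hypoxia, the T cell marker Cd3d was higher, the only gene tested of 7 (list sums of 1.27 to 1.77 CPM in KO and 0.752 to 1.05 CPM in WT), as was Cd209a of 5 dendritic cell markers (list sums of 4.55 to 12.1 CPM in KO and 7.29 to 9.90 CPM in WT). The other dendritic cell markers, Flt3, Zbtb46, Xcr1 and Siglech, went the other way without a call. Their log2 fold changes were -0.54, -0.70, -0.57 and -0.15. Fibroblast markers were called higher for 1 of 1 tested in normoxia (8.70 to 12.4 CPM in KO and 3.74 to 5.69 CPM in WT) and for 1 of 2 tested in hypoxia (18.2 to 26.3 CPM in KO and 12.6 to 20.02 CPM in WT). The eosinophil marker Il5ra was at 0 in 1 of 4 KO and 3 of 4 WT normoxia libraries, and Ccr3 and Fcer1a in 1 WT normoxia library each. The part of these markers in the members' differences was not tested.

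In tumors all 10 members had a positive log2 fold change in KO over WT, and 5 of them passed the test. The called genes were 4 of the 5 subunits, Nfkb1, Nfkb2, Rel and Relb, together with Tnfaip3, while 6.32% of all 14370 tested genes were called, 3.28% higher and 3.04% lower. The median over the members was 0.30, beside 0.01 over all genes. Nfkb1 had 81.4, 85.6 and 77.5 CPM in KO tumors, against 65.5, 65.8 and 63.0 CPM in WT tumors. Rel had 76.5, 74.97 and 60.3 CPM in KO tumors, against 55.1, 49.0 and 51.0 CPM in WT tumors. For both, every KO tumor was above every WT tumor, and the log2 fold changes were 0.33 ± 0.07 for Nfkb1 and 0.45 ± 0.10 for Rel (SE, edgeR adjusted p = 0.0149 and 0.0153). Nfkb2 had 184, 179 and 179 CPM in KO tumors, against 136, 149 and 153 CPM in WT tumors. Relb had 101, 107 and 110.4 CPM in KO tumors, against 79.5, 92.4 and 86.7 CPM in WT tumors. These noncanonical partners were likewise apart, at 0.30 ± 0.07 for Nfkb2 and 0.30 ± 0.08 for Relb (edgeR adjusted p = 0.0222 and 0.0381). Tnfaip3, the feedback enzyme, had 276, 270.0 and 282 CPM in KO tumors, against 213, 242 and 209 CPM in WT tumors. It was higher in KO by 0.32 ± 0.07 on the log2 scale, with no overlap (edgeR adjusted p = 0.0231).

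The 5 members without a call in tumors were Rela, the 3 inhibitors and Tnf. Tnf had 31.7, 26.8 and 26.1 CPM in KO tumors, against 22.6, 21.4 and 21.9 CPM in WT tumors (0.36 ± 0.10, edgeR adjusted p = 0.0513). Nfkbie had 181, 173 and 183 CPM in KO tumors, against 149, 158 and 149 CPM in WT tumors (0.23 ± 0.07, edgeR adjusted p = 0.0556). Nfkbia had 632, 631 and 577 CPM in KO tumors, against 521, 561 and 449 CPM in WT tumors (0.26 ± 0.09, edgeR adjusted p = 0.099). None of these ranges overlapped although no call was made, and ranges were apart, higher in KO, for 9 of 10 members and for 13% of all tested genes. Rela had 0.11 ± 0.07 (edgeR adjusted p = 0.402) and Nfkbiz, the only member with overlapping ranges on the tumor scale, 0.13 ± 0.08 (adjusted p = 0.38). On the scale shared by all libraries, the tumor ranges of Rela and Nfkbia overlapped too (Nfkbia at 596 to 669 CPM in KO and 478 to 609 CPM in WT). In the fit of all 22 libraries, Nfkb1 was called between KO and WT tumors (edgeR adjusted p = 0.00906). Nfkb2 and Relb were not called there (0.131 and 0.314).

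With 3 libraries a group, each library left out removed at least 1 of the 5 calls. None of the 10 members was called without KO replicate 1 or KO replicate 2, and 2 of the 5 calls were kept without WT replicate 1 or WT replicate 3. Without KO replicate 3, Relb and Tnfaip3 lost their calls (edgeR adjusted p = 0.0919 and 0.0578) and Tnf gained one (0.035), and without WT replicate 2 only Rel lost its call (0.0789). The log2 fold changes of the 5 genes stayed between 0.24 and 0.54 throughout, with an adjusted p of at most 0.176. Other markers moved with the tumor genotype. Immediate early genes were called higher in KO for 5 of 9, with sums of 10554 to 10779 CPM in KO and 9078 to 10213 CPM in WT. Dendritic cell markers were called higher for 2 of 4 tested (sums of 15.9 to 21.9 CPM in KO and 7.06 to 9.62 CPM in WT, Siglech at 0 in every WT library). T and NK cell markers were called lower for 3 of 7, the T cell genes Cd3e, Cd3g and Cd4 (4.14 to 7.27 CPM in KO and 8.93 to 19.1 CPM in WT, none at 0). Without a call, Cd3d and Cd8a had log2 fold changes of -1.19 and -1.56. The NK cell genes Ncr1 and Klrb1c went the other way, at 1.55 ± 0.54 and 0.14 ± 0.42, also without a call. Fibroblast markers were called higher for 1 of 4 (416 to 534 CPM in KO and 332 to 401 CPM in WT), erythroid markers for 1 of 3 tested (96.0 to 109 CPM in KO and 44.0 to 71.7 CPM in WT) and neutrophil markers for 1 of 4 tested, Csf3r. Of 6 general myeloid genes, Cybb was higher and Itgam lower (0.31 ± 0.08 and -0.41 ± 0.07 on the log2 scale, edgeR adjusted p = 0.0415 and 0.00373), and their sums were 19527 to 24075 CPM in KO and 13474 to 18753 CPM in WT. Genes of the mitochondrial genome summed to 1681 to 1973 CPM in KO and 879 to 1615 CPM in WT, with 0 of 13 called and a median log2 fold change of 0.41. The part of these markers in the members' differences was not tested. With all 6 libraries thinned to the same total, an alternative chosen after seeing the data because KO libraries were shallower, 6 members were called.

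**Figure D3:**
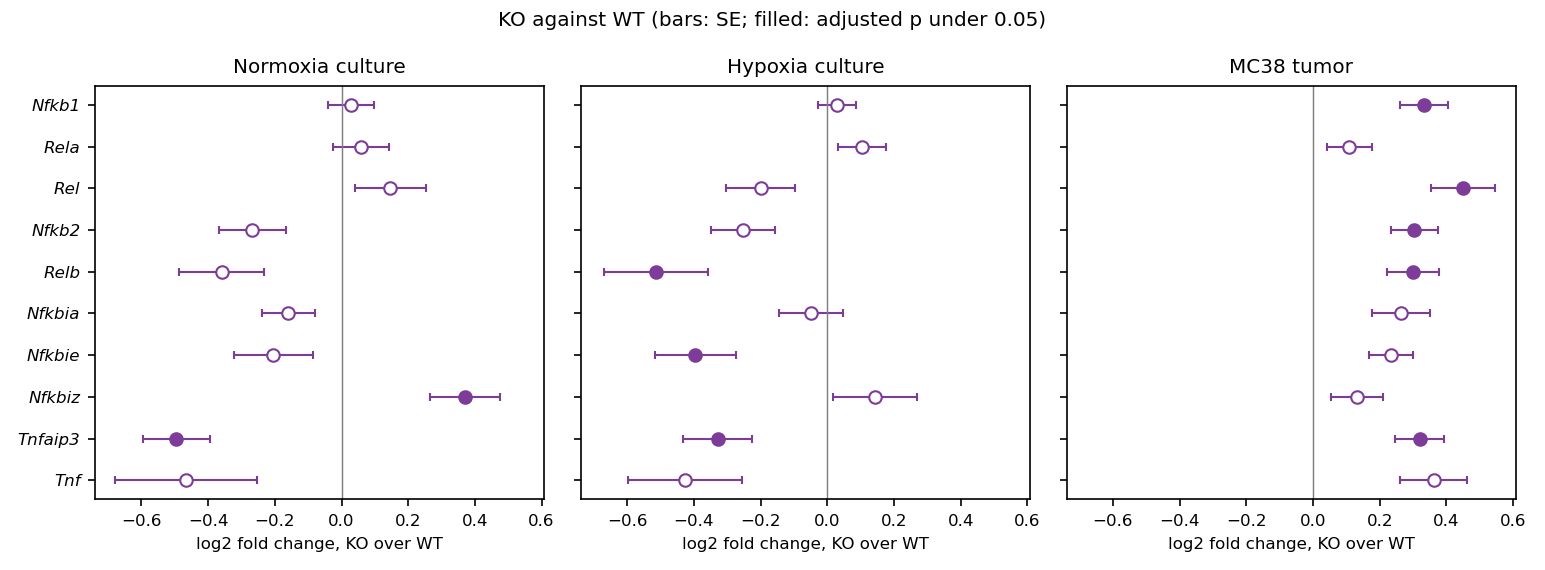
Log2 fold change of each gene in VISTA KO over WT samples (x axis) in normoxia cultures, hypoxia cultures and MC38 tumors, with bars of 1 SE and filled points where the edgeR adjusted p was under 0.05. All 10 tumor values lie above 0, while Tnfaip3, Relb, Nfkb2, Nfkbia, Nfkbie and Tnf lie below 0 in both cultures.

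Whether the genotype differences themselves differed was tested directly. Between hypoxia and normoxia cultures, none of the 10 members had a different KO effect, beside 0.477% of 15293 genes called, and DESeq2 called none either. Rel alone had an unadjusted p under 0.05 (difference -0.34 ± 0.16, edgeR adjusted p = 0.589). For Tnfaip3 the difference was 0.17 ± 0.15 and for Relb -0.15 ± 0.21 on the log2 scale, and at this spread no difference of the KO effect between the 2 cultures was detectable.

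Between tumors and cultures the KO effect did differ for some members, in a test added after the values were seen. Tumor minus normoxia, the difference was 0.76 ± 0.15 for Tnfaip3 and 0.52 ± 0.14 for Nfkb2 (SE, edgeR adjusted p = 0.00248 and 0.0219), the 2 members called beside 6.23% of 16048 genes (1.88% higher and 4.35% lower). Tumor minus hypoxia, 5 members were called beside 8.13% of genes (3.06% higher and 5.07% lower): Relb at 0.77 ± 0.20, Rel at 0.61 ± 0.17, Tnfaip3 at 0.61 ± 0.15, Nfkbie at 0.59 ± 0.16 and Nfkb2 at 0.52 ± 0.14 (edgeR adjusted p = 0.015, 0.0211, 0.0104, 0.0249 and 0.0187). Rela and Nfkbiz had differences below 0 in both tests and no call. Both tests use the same tumor samples, and tissue, time and table differ between the experiments along with the setting. Neither test was repeated with libraries left out.

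The wider pathway was read from lists of genes by role, whose counts stand beside the shares of all genes called given above for KO over WT: 11.3% in normoxia, 34.9% in hypoxia and 6.32% in tumors. Genes of the IKK complex, related kinases and their partner proteins were little changed between genotypes. In normoxia 0 of 10 were called, and 0 of 10 in tumors. In hypoxia Tab3 (0.28 ± 0.07) and Tab2 (0.21 ± 0.07), which link TAK1 to ubiquitin chains, were higher in KO (edgeR adjusted p = 0.014 and 0.0308). Of 21 receptor adaptors, 1 was higher and 1 lower in normoxia, 5 were higher and 4 lower in hypoxia, and 4 were higher and 0 lower in tumors. The adaptors' shares in both cultures are near those of all genes. Their median log2 fold change was 0.09 in normoxia, 0.09 in hypoxia and 0.11 in tumors. Traf1 and Malt1, named next, thus do not stand for the list in culture. Traf1, a TRAF family adaptor and itself an NF-kappaB target, was lower in KO normoxia cultures (4.02 ± 0.33 CPM in KO and 5.66 ± 0.56 CPM in WT, SD, n = 4 each) at -0.49 ± 0.13, and higher in KO tumors (82.3 ± 3.97 CPM in KO and 52.1 ± 1.01 CPM in WT, SD, n = 3 each) at 0.66 ± 0.07 (edgeR adjusted p = 0.0369 and 0.000158). Malt1, the paracaspase that relays signals to IKK, was lower in KO hypoxia cultures (-0.36 ± 0.07) and higher in KO tumors (0.47 ± 0.07; edgeR adjusted p = 0.0035 and 0.00159). Traf5 (0.51 ± 0.11) and Birc3 (0.29 ± 0.07) were the other adaptors higher in KO tumors (edgeR adjusted p = 0.0177 and 0.0325).

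Outside the 10 genes, the nuclear inhibitors Nfkbid and Bcl3 were higher in KO tumors. Nfkbid, encoding a nuclear IkappaB protein, averaged 99.9 ± 3.83 CPM in KO and 59.0 ± 5.30 CPM in WT tumors (SD, n = 3 each), a log2 fold change of 0.76 ± 0.08 (edgeR adjusted p = 0.00013). It was also higher in KO hypoxia cultures, at 64.3 ± 4.38 CPM in KO and 42.3 ± 6.90 CPM in WT (0.60 ± 0.10, edgeR adjusted p = 0.00109). Bcl3, a nuclear partner of the Nfkb1 and Nfkb2 products, rose in KO tumors by 0.43 ± 0.08 (edgeR adjusted p = 0.00882). In all, 0 of 3 were called in normoxia, 1 higher and 1 lower in hypoxia, and 2 higher in tumors. Among receptors and ligands, Cd40, a noncanonical receptor, averaged 190.1 ± 3.51 CPM in KO and 136 ± 9.83 CPM in WT tumors (0.48 ± 0.07, edgeR adjusted p = 0.0017) and was under 1 CPM in the mean of every culture group. Ltb, encoding lymphotoxin beta, was higher in KO in normoxia (0.47 ± 0.11) and hypoxia (0.51 ± 0.09), and lower in KO tumors (-1.003 ± 0.26), where it stood at 1.86 ± 0.61 CPM in KO and 3.73 ± 0.58 CPM in WT (edgeR adjusted p = 0.0233, 0.000971 and 0.0411). Of this list of 9, 1 of 6 tested was higher and 0 lower in normoxia, 1 of 8 was higher and 4 lower in hypoxia, and 2 of 7 were higher and 1 lower in tumors. The 4 lower in KO hypoxia cultures were the receptors Ltbr, Tnfrsf11a and Tnfrsf13c and the TNF-releasing protease Adam17.

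Among other feedback genes, the calls given here for Tnip1 and Tnip3 had the direction of Tnfaip3, while the list as a whole did not share it in hypoxia. Tnip1, encoding an A20-binding protein, was lower in KO normoxia cultures (-0.32 ± 0.09) and higher in KO tumors (0.31 ± 0.07; edgeR adjusted p = 0.0427 and 0.0215). Tnip3, of the same family, was lower in KO cultures, at 12.6 ± 1.42 CPM in KO and 22.8 ± 4.20 CPM in WT in normoxia (-0.85 ± 0.14) and 12.6 ± 3.45 CPM in KO and 24.3 ± 1.74 CPM in WT in hypoxia (-0.95 ± 0.16; edgeR adjusted p = 0.00481 and 0.00116). Of the 13 genes, 0 were higher and 2 lower in normoxia, 4 higher and 3 lower in hypoxia, and 1 higher and 0 lower in tumors. The list's median log2 fold change in hypoxia was 0.05, and its share called in tumors is near that of all genes.

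Target genes of the pathway were called lower more than higher in KO cultures, while the summed level of the list was higher in KO. It was 7345 to 10059 CPM in KO and 5371 to 7039 CPM in WT normoxia samples. In hypoxia it was 6047 to 7343 CPM in KO and 4457 to 5233 CPM in WT samples. Such a sum is set mostly by the most abundant genes of the list, so it does not give the direction of most targets. In normoxia 1 of 29 tested was higher and 11 were lower, with a median log2 fold change of -0.46 beside -0.02 over all genes. Il1a, encoding interleukin-1 alpha, had 1.01 ± 0.34 CPM in KO and 6.00 ± 1.11 CPM in WT (SD, n = 4 each), and Csf1, encoding a macrophage growth factor, had 27.4 ± 1.04 CPM in KO and 48.4 ± 5.93 CPM in WT. Their log2 fold changes were -2.56 ± 0.24 and -0.82 ± 0.10, and Sod2, a mitochondrial superoxide dismutase, and Il1b, encoding interleukin-1 beta, followed at -0.71 ± 0.13 and -0.85 ± 0.17 (edgeR adjusted p = 0.000162, 0.000835, 0.00757 and 0.0109). In hypoxia 5 of 31 were higher and 14 lower (median -0.29, beside -0.01 over all genes). The leading ones were Bcl2a1d (-0.81 ± 0.09), a survival gene whose close paralogs make its counts uncertain, the neutrophil granule gene Lcn2 (0.85 ± 0.10), the chemokine Cxcl1 (-1.46 ± 0.19) and Il1a (-1.68 ± 0.22; edgeR adjusted p = 9.86e-05, 0.000149, 0.000188 and 0.000204). Lcn2 moved the same way as the neutrophil marker sums given above, whose part in it was not tested.

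In tumors 7 of 31 targets were higher and 4 lower in KO (median 0.19, beside 0.01 over all genes). Ccl5, a chemokine that attracts T cells, had 299 ± 52.6 CPM in KO and 117 ± 21.3 CPM in WT tumors (SD, n = 3 each; 1.35 ± 0.16, edgeR adjusted p = 0.00167). Saa3, an acute-phase gene (0.78 ± 0.13), and Gadd45b, a stress response gene (0.38 ± 0.07), were higher as well, and the survival gene Bcl2l1 was lower (-0.54 ± 0.08; edgeR adjusted p = 0.00275, 0.00688 and 0.00191). The lists of targets therefore held genes moving in both directions in each setting.

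Hypoxia against normoxia, 18 of 30 targets were higher and 9 lower in KO, beside 26.1% and 25.6% of all genes, and 17 were higher and 10 lower in WT, beside 26.6% and 25%. Ptgs2, encoding cyclooxygenase-2, was the most marked, at 6.40 ± 0.19 in KO and 6.32 ± 0.19 in WT on the log2 scale, followed by Il6, encoding interleukin-6, at 5.39 ± 0.23 in KO and 4.07 ± 0.20 in WT (edgeR adjusted p of at most 4.91e-11 for each). Of the feedback genes, Dusp1, a MAP kinase phosphatase, was higher by 2.50 ± 0.22 in KO and 2.56 ± 0.22 in WT, and Zfp36, encoding an RNA-binding protein that destabilises Tnf mRNA, by 1.12 ± 0.10 in KO and 1.13 ± 0.10 in WT (edgeR adjusted p of at most 1.09e-07 for each). Ikbke, a noncanonical IKK-related kinase, was lower at -0.92 ± 0.08 in KO and -1.24 ± 0.08 in WT (edgeR adjusted p = 2.28e-08 and 6.27e-10). Immediate early genes rose alongside, as given above.

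**Figure D4:**
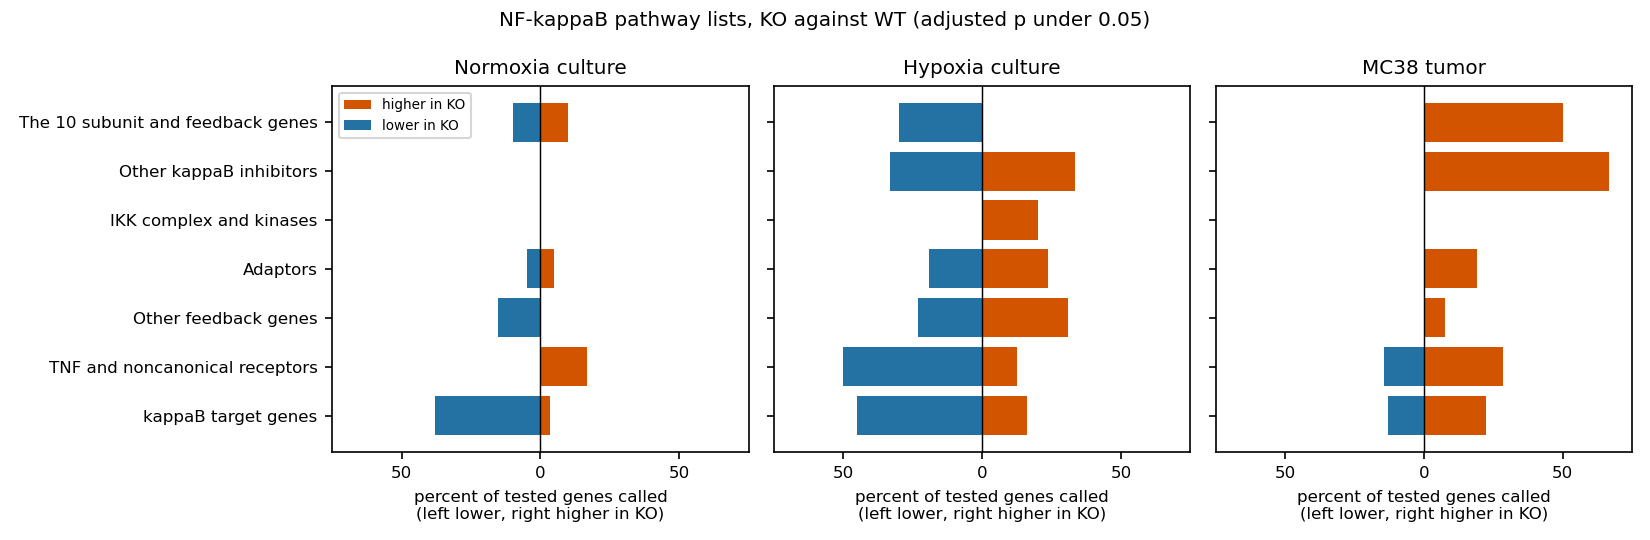
Percent of tested genes called higher (right) and lower (left) in VISTA KO over WT samples in each pathway list, for normoxia cultures, hypoxia cultures and MC38 tumors. Target genes were called lower more than higher in both cultures, and the 4 adaptors called in tumors were all higher in KO.

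The genes whose profile over the 6 groups was most like that of 3 members were found among 8283 genes, as the root mean square difference of centred group means on the log2 scale. For Nfkb1 they were Zfp991, Pcyt2 and AI987944 (0.06, 0.06 and 0.07, where the median gene was at 0.71). For Nfkbia they were Clec4e, Foxo1 and Slc41a3 (0.08, 0.12 and 0.12, median gene 0.78). For Tnf they were Slc16a10, Zfp326 and Ppic (0.09, 0.10 and 0.13, median gene 0.65).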

How the data were processed

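The authors' libraries came from a SMART-Seq RNA kit of Takara, per the labels. Raw counts per gene were deposited as 1 table for each experiment; the submitters' processing notes name Subread, featureCounts and GRCm38.p6. The authors also deposited normalized signal, for which those notes name DESeq2. Each listed gene had at least 2 counts over its table. Groups came from the sample titles; culture columns whose code does not spell out the genotype were read as VISTA KO by elimination, since the others are named WT. 0 columns of per-sample values were left unmapped.

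Counts were tested with edgeR 4.0.16 (R 4.3.3): filterByExpr, TMM scaling, robust quasi-likelihood test, Benjamini-Hochberg adjustment over all tested genes and a threshold of 0.05. KO was compared with WT within each table, hypoxia with normoxia in a fit of all 16 culture libraries, and the order of group levels in a fit of all 22. Alternatives used DESeq2 1.42.0, limma 3.58.1 on log2 of the deposited normalized signal plus 1, and those of the closing section. The procedure was tested on simulated data. CPM are on the TMM scale of each experiment unless said to be shared. Gene models are GENCODE M21 (GRCm38), and exon lengths merge all isoforms.

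Any pair of libraries in a group differed by more than counting error. Only the normoxia replicates are stated to be independent; elsewhere p-values measure the spread between these samples, which may be technical. The named genes were all 10 members, up to 4 called genes with the smallest p per pathway list, and for Nfkb1, Nfkbia and Tnf the 3 genes most like each. The members, lists and tests were chosen with earlier results of these data known.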

Additional observations from a re-analysis of the deposited data

Results flagged for a closer look

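Among 40 sets of 4 libraries of one gene in one group, 2 held a sample far from the other 3, and chance flags about 1 in 20 groups. Nfkb2 stood at 47.9 CPM in normoxia KO replicate 4, where the other KO samples had 61.6 to 63.4 CPM. Tnf stood at 22.5 CPM in hypoxia WT replicate 2, where the other WT samples had 36.3 to 38.2 CPM.

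The effect of VISTA KO differed between tumors and cultures for some members in tests of the difference itself, chosen after the values were seen. Against normoxia 2 members were called, beside 6.23% of 16048 genes (1.88% higher). Against hypoxia 5 were called, beside 8.13% (3.06% higher). Neither test was repeated with libraries left out. Tumor minus normoxia, the differences on the log2 scale were 0.76 for Tnfaip3 (edgeR adjusted p = 0.00248) and 0.52 for Nfkb2 (0.0219). Tumor minus hypoxia, they were 0.77 for Relb (edgeR adjusted p = 0.015), 0.61 for Rel (0.0211), 0.61 for Tnfaip3 (0.0104), 0.59 for Nfkbie (0.0249) and 0.52 for Nfkb2 (0.0187). The experiments differ in tissue, time and table as well, and these cannot be told apart.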

How the results depend on the processing

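The oxygen comparisons kept every member's direction under every alternative run, while calls of the KO comparisons did change. Of member results, 981 of the alternatives kept direction and side of the threshold, 53 lost the call, 20 gained one and 26 changed sign.

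Members called in normoxia numbered 1 with library size alone or with no filter and 0 against a fold threshold of 1.2, in place of 2. In hypoxia, in place of 3, they numbered 5 with DESeq2, 5 with no filter, and 0 with the fold threshold. In tumors they numbered 0 with the fold threshold, in place of 5. Over all genes, calls in normoxia numbered 2388 with DESeq2, 416 with the fold threshold and 2881 without KO replicate 4 and WT replicate 3, in place of 1577. In hypoxia 1959 passed the fold threshold, in place of 5245, and in tumors 1363 were called with no filter and 333 with the fold threshold, in place of 908. For the difference of KO effects between cultures, DESeq2 called 195 genes, in place of 73. With each replicate left out, members called ranged over 1 to 3 in normoxia, 0 to 4 in hypoxia, 0 to 4 in tumors, 10 to 10 for oxygen in KO, 8 to 10 for oxygen in WT and 0 to 0 for the difference; all genes called ranged over 469 to 2233, 3859 to 5703, 444 to 1072, 7045 to 8381, 7037 to 8578 and 40 to 100.

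With library size alone, the log2 fold change of Nfkb1 was -0.058 in normoxia and -0.013 in hypoxia, and that of Rela -0.024 in normoxia. Genes called higher and lower were then 2185 and 3175 in hypoxia (2607 and 2638 with TMM), 3327 and 4931 for oxygen in KO (3996 and 3909) and 3138 and 5503 for oxygen in WT (4075 and 3824). Nfkbia in hypoxia ranged over -0.12 to 0.047 with replicates left out. The KO effect difference of Nfkb1 between cultures was -0.014 with no filter. With replicates left out, that difference ranged over -0.019 to 0.025 for Nfkb1, -0.061 to 0.095 for Nfkb2, -0.017 to 0.087 for Rela, -0.25 to 0.0073 for Relb and -0.16 to 0.15 for Tnf. The cause was not tested.

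In no comparison did all same-numbered samples deviate together by a correlation over 0.1 (-0.36 to 0.37 in all, 0.08 to 0.22 in tumors), so the samples were taken to share only a number. In tumors each of the 6 samples correlated best with its own number, a hint from the data and not from the design. With the replicate block, 3 members were called in normoxia (Relb was added, edgeR adjusted p = 0.0266), 0 in hypoxia and 8 in tumors (Nfkbia, Nfkbie and Tnf were added, 0.000855, 0.00597 and 0.00762), and 2278, 3942 and 2266 genes in all; 10 members for oxygen in KO, 9 in WT, and 0 members and 40 genes for the difference.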
